A study of Mus musculus with 20 samples.

Results

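Mouse oocytes labelled Btg4-/- were compared with wild-type oocytes at the germinal vesicle (GV) stage, the arrest in first meiotic prophase that precedes maturation. Each genotype had 2 libraries of bulk RNA. The genes described are those that averaged at least 1 FPKM (fragments scaled by transcript length and by mapped fragments) in either genotype, with loci of 1 gene symbol summed: 9379 of the 23309 symbols in the files, over 4 of the 20 libraries of the series. Every animal was of the ICR strain; each library pooled 60 oocytes from females 21 to 23 days old that had received PMSG/hCG, the gonadotropins used to drive follicle growth and ovulation. The labels give neither the Btg4 allele nor the source of a genotype's libraries (separate females or 1 pool). The p-values therefore measure how far libraries spread, and part of that spread may be technical. The other libraries of the Btg4 experiment were mature oocytes in second metaphase (MII), zygotes and 2-cell embryos of both genotypes. A separate Erk experiment gave 1 library each of Erk-/- and wild-type GV and MII oocytes.

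A GV oocyte is close to transcriptionally silent when fully grown and lives on mRNAs stored during growth. Many of these mRNAs are shortened at the poly(A) tail and destroyed once meiosis resumes. BTG4 is an adaptor of the BTG/TOB family that brings the CCR4-NOT deadenylase to maternal mRNAs; its own mRNA is stored in the GV oocyte and translated during maturation. The GV comparison describes the 2 genotypes before the stage at which the adaptor is known to act.

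The 4 GV libraries resembled each other and stood apart from the GV libraries of the Erk experiment. Across the 9379 genes, log2 levels correlated at Pearson r = 0.974 between the Btg4-/- libraries, 0.974 between the wild-type libraries and 0.949 to 0.957 between genotypes, but at 0.586 to 0.63 with the wild-type GV library of the Erk experiment. All 15 oocyte markers reached 1 FPKM in the 4 libraries, several at low levels. Zp3, a zona pellucida glycoprotein, had 118 and 89.0 FPKM in Btg4-/- GV oocytes and 152 and 155 FPKM in wild-type GV oocytes, against 4768 FPKM in the Erk experiment's wild-type GV library. Nlrp5, the core of the subcortical maternal complex, had 1.70 and 3.08 FPKM in Btg4-/- and 3.38 and 1.36 FPKM in wild type, against 1172 FPKM in that library. Most of the 15 markers were lower than in that library, but not all. Oosp1 had 10400 and 9068 FPKM in Btg4-/- and 8215 and 7480 FPKM in wild type, against 2299 FPKM there. Dazl had 184 and 187 FPKM in Btg4-/- and 200 and 239 FPKM in wild type, against 73.8 FPKM. Figla lay on either side, at 6.33 and 4.33 FPKM in Btg4-/- and 14.9 and 15.8 FPKM in wild type, against 13.8 FPKM. Zp3 was also higher in the Btg4-/- MII libraries, at 772 and 697 FPKM, than in any of the 4 GV libraries. The stage therefore rests on the labels, what sets the libraries of the 2 experiments apart was not tested, and the levels below belong to these 4 libraries.

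Depth estimated from the deposited intervals was 2330000 and 2410000 fragments in Btg4-/- and 2430000 and 1860000 in wild type, and 8570 and 8385 symbols reached 1 FPKM in Btg4-/-, against 8953 and 8976 in wild type. Summed markers of granulosa and cumulus cells, the somatic cells around the oocyte, came to 172 and 172 FPKM in Btg4-/- and 180 and 181 FPKM in wild type, with 14 of the 29 under 1 FPKM in both genotypes, and 1 called higher (Inhba) and 2 lower (Hsd17b7 and Serpine2). Of the theca, stroma and smooth muscle markers, 1 of 12 was a member, with list sums of 4.73 and 3.84 FPKM in Btg4-/- and 2.33 and 3.81 FPKM in wild type. Of the blood, endothelial and macrophage markers, 1 of 17 was a member, with sums of 5.67 and 3.28 FPKM in Btg4-/- and 2.93 and 2.27 FPKM in wild type. In bulk samples, fewer cells of a type and less RNA per cell cannot be told apart.

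Btg4 mRNA itself was not lower in the libraries labelled Btg4-/-. The gene (chromosome 9, 50924106 to 50927805 in mm9) had 1980 and 1881 FPKM in Btg4-/- GV oocytes and 1450 and 1673 FPKM in wild-type GV oocytes. Both Btg4-/- values lay above both wild-type values. The log2 difference was 0.31 (SE 0.12, adjusted p = 0.138 by limma), and 0.55 (adjusted p = 0.0134) after median-of-ratios scaling. At MII it had 172 and 191 FPKM in Btg4-/- and 415 and 406 FPKM in wild type, in zygotes 139 and 164 FPKM in Btg4-/- and 610 and 560 FPKM in wild type, and in 2-cell embryos 3514 and 3632 FPKM in Btg4-/- and 1147 and 964 FPKM in wild type. An FPKM summed over the whole gene cannot show whether a deleted or frameshifted part is missing, so it neither bears out nor contradicts the genotype label. Within 5 Mb on either side of Btg4, where DNA flanking an engineered allele is usually co-inherited, 43 genes were members, with a median log2 difference of -0.02. Of these, 2 were higher in Btg4-/- and 0 were lower by limma, with 4 and 2 at an unadjusted p under 0.05. Over all members 1.88% were higher and 8.46% lower. Etfa, the alpha subunit of the mitochondrial electron transfer flavoprotein, had 63.0 and 70.2 FPKM in Btg4-/- and 31.0 and 31.7 FPKM in wild type (log2 difference 1.06, adjusted p = 0.00217). Rbm7, an RNA-binding subunit of the nuclear exosome targeting complex, had 347 and 326 FPKM in Btg4-/- and 217 and 206 FPKM in wild type (0.67, adjusted p = 0.00588).

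In the values as deposited, most genes that differed between genotypes were lower in Btg4-/-. In the limma fit on log2(FPKM + 1), 176 genes (1.88%) were higher in Btg4-/- and 793 (8.46%) were lower, so that 18.2% of the calls were higher; 62 and 334 of them differed by 1 log2 unit or more. Over all 12311 genes tested the counts were 178 higher (1.45%) and 795 lower (6.46%). The split depended on the scaling, and the median gene lay 0.18 log2 units lower in Btg4-/-. With median-of-ratios scaling, which moved that median to 0.02, 437 genes (4.66%) were higher and 378 (4.03%) lower, and 53.6% of the calls were higher. The 176 higher genes and 378 of the 793 lower genes were called under both. Both Btg4-/- values lay above both wild-type values for 18.5% of members and below them for 41.8%, and after median-of-ratios scaling for 31.7% and 28.5%. The median absolute log2 difference was 0.36 between the genotype means, 0.25 between the Btg4-/- libraries and 0.20 between the wild-type libraries. These are unlike measures, because a mean of 2 libraries varies less than 1 library. The 0.36 also includes the shift of the median gene. With the 4 GV libraries alone in the fit, which leaves 2 residual degrees of freedom, limma called 0 genes in either direction, while 2621 had an unadjusted p under 0.05. The calls therefore use the spread of all 16 libraries of the Btg4 experiment. Leaving out 1 GV library also lowered the counts, to 80 higher and 567 lower without Btg4-/- 1, 88 and 216 without Btg4-/- 2, 53 and 207 without wild-type 1, and 62 and 264 without wild-type 2.

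**Figure D1:**
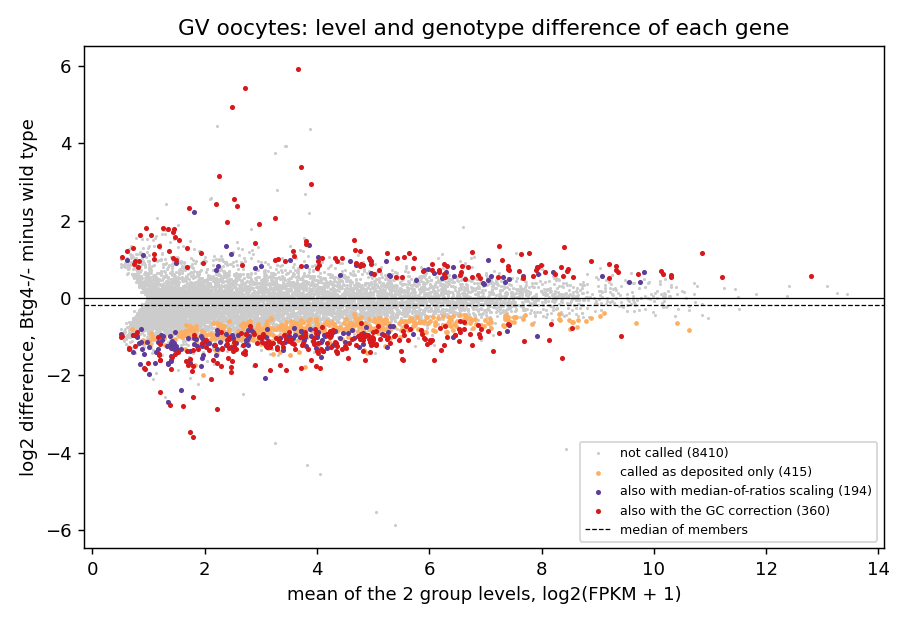
Each point is 1 of the 9379 genes, by its level (mean of the genotype means, log2(FPKM + 1)) and its log2 difference, Btg4-/- minus wild type. Colours give genes called as deposited, those also called after median-of-ratios scaling, and those also called after the GC correction; the dashed line at -0.18 is the median of all points. Purple and red points (called under both scalings) stand on both sides of 0, while orange points (called only as deposited) lie below 0.

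The median difference was nearer 0 for abundant than for scarce mRNAs, while the share of genes called lower was largest at middle levels. Among genes under 3 FPKM the median log2 difference was -0.25 and 27 of 2984 were higher and 115 lower (0.905% and 3.85%). Between 10 and 30 FPKM it was -0.18, with 32 higher and 239 lower of 1794 (1.78% and 13.3%). Among the 290 genes at 300 FPKM or more it was 0.05, with 26 higher and 20 lower (8.97% and 6.90%). After median-of-ratios scaling the counts were 49 higher and 77 lower under 3 FPKM, 79 and 113 between 10 and 30 FPKM, and 57 and 4 at 300 FPKM or more. The 10 most abundant transcripts of wild-type GV oocytes included Rn45s, the ribosomal RNA precursor, which had 8251 and 15507 FPKM in Btg4-/- and 10231 and 10765 FPKM in wild type; its levels in the genotypes overlapped. Rfpl4, an oocyte RING finger protein gene, was the 1 called gene of the 10: it had 9129 and 8210 FPKM in Btg4-/- and 5787 and 5968 FPKM in wild type (log2 difference 0.56, adjusted p = 0.00331). Gm97, Oosp1, Colec12, Bcl2l10, Intu, Rps14, Trappc9 and Omt2b did not pass, with log2 differences between -0.29 and 0.31; with median-of-ratios scaling Oosp1, Bcl2l10 and Omt2b also passed, all upward.

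The base composition of transcripts moved with the genotype difference. Genes called higher in Btg4-/- had a median transcript GC content of 44.7% and genes called lower 54.6%, against 50.3% for all members. The coding starts of 4 of the genes called between genotypes show that range: Glmn, called higher, against Rgl2 and Map1s, called lower, and Ccl2, a gene called lower whose transcripts are AT-rich. Each line gives the first 90 coding bases, 5′ to 3′, from GENCODE M21 on GRCm38, with G and C in capitals.
Glmn: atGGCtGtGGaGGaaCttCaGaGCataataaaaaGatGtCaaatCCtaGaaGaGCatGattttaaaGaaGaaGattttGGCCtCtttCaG
Ccl2: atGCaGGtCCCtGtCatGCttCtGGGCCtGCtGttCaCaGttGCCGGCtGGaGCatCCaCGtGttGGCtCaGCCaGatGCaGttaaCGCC
Rgl2: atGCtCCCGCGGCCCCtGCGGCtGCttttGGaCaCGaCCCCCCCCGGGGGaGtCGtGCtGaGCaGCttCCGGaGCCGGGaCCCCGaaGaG
Map1s: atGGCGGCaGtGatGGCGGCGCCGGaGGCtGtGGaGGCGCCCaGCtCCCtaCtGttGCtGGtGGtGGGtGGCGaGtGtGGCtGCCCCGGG
G and C make up 33 of the 90 bases in Glmn, 53 in Ccl2, and 65 in both Rgl2 and Map1s. Over whole transcripts the GC content is 38.6% for Glmn, 43.8% for Ccl2, 60.7% for Rgl2 and 63.4% for Map1s. The printed stretch of Ccl2 is thus GC-rich (58.9%), unlike its whole transcripts. When the members with a GC value (9308) were divided into 5 equal bins, the median log2 difference was 0.11, -0.08, -0.19, -0.35 and -0.47 in order of rising GC. Calls followed: 89 higher and 27 lower in the most AT-rich bin (median GC 42.6%), 12 higher and 314 lower in the most GC-rich (58.0%). Median-of-ratios scaling left the slope in place, with medians of 0.32 in the most AT-rich and -0.29 in the most GC-rich bin. Across genes, which are not independent and share the same 4 libraries, Spearman's correlation of GC content and log2 difference was -0.40 for the genotype means. It was -0.25 to -0.44 in the 4 pairs of a Btg4-/- with a wild-type library. Within a genotype, for library 2 minus library 1, it was -0.15 in Btg4-/- and -0.19 in wild type. The sign of these 2 values depends on the order taken, so only their size can be set beside the others. Bins by transcript length showed no such slope, with medians of -0.14 to -0.22.

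**Figure D2:**
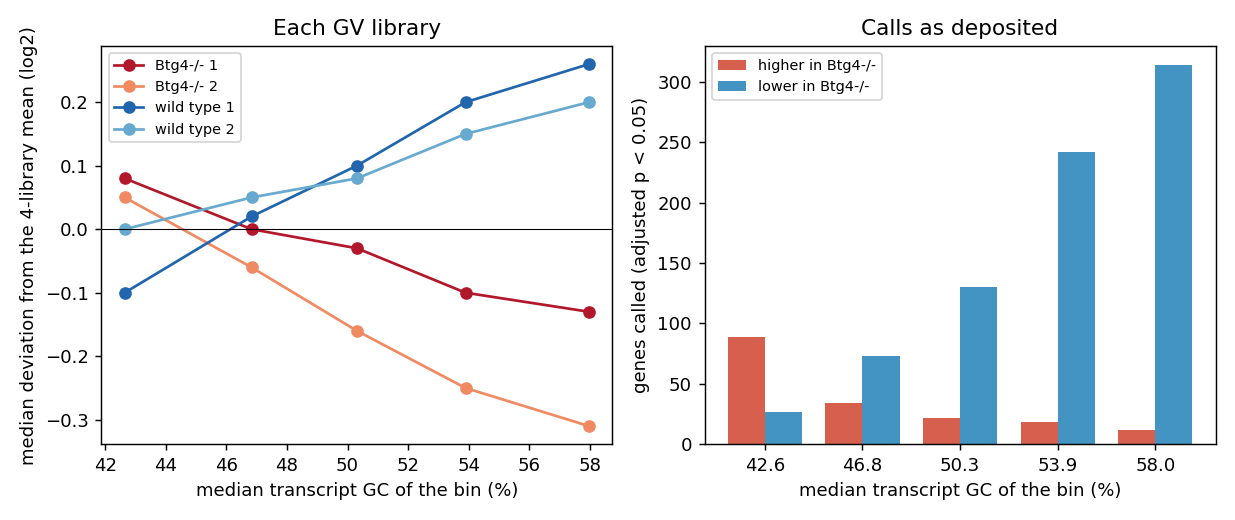
Left: median deviation of each GV library from the 4-library mean (log2) in 5 bins of transcript GC; right: genes called higher or lower in Btg4-/- in the same bins. In the most GC-rich bin the Btg4-/- libraries lie at -0.13 and -0.31 and the wild-type libraries at 0.26 and 0.20; lower calls increase to 314 in that bin, against 27 in the most AT-rich.

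A correction for each library's smooth trend on GC content left 164 genes higher (1.76%) and 260 lower (2.79%), with 38.7% of calls higher and a median of -0.04. The trend was subtracted with its level, so the correction also removed most of the shift of the median gene. The change in counts from the values as deposited is thus not one of the GC slope alone. Among members it reduced the GC slope without removing it, with a Spearman's correlation of -0.10 afterwards. The corrected median was 0.02 in the most AT-rich bin (49 higher, 27 lower) and -0.11 in the most GC-rich (24 higher, 76 lower). Under all 3 treatments (no scaling, median-of-ratios scaling, GC correction) 131 genes were higher (1.4%) and 229 lower (2.44%). Whether the GC slope is part of the genotype difference or comes from the libraries cannot be told apart with 2 libraries per genotype. Calls lay on every chromosome analysed, with the share of genes lower in Btg4-/- between 4.67% on chromosome 16 and 11.7% on chromosome 11, whose median GC contents are 49.2% and 52.2%.

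Among genes of at least 10 FPKM in 1 genotype that were called under both scalings with no overlap of libraries, 136 were higher in Btg4-/- and 228 were lower. The 12 with the largest difference in each direction are described here. The higher ones included transcripts listed at or near 0 in wild type. Gm13103 had 102 and 94.2 FPKM in Btg4-/- and 0.70 and 0.54 FPKM in wild type (log2 difference 5.93, SE 0.27, adjusted p = 3.73e-07). Il20ra, a receptor subunit for cytokines of the interleukin-20 family, had 40.3 and 45.1 FPKM in Btg4-/- and was listed at 0 in both wild-type libraries (adjusted p = 3.36e-06). Iqcf1, which encodes an IQ motif protein, had 31.0 and 29.1 FPKM in Btg4-/- and was listed at 0 in both wild-type libraries (adjusted p = 0.00139). All 3 were present in both Btg4-/- libraries at similar levels. The wild-type GV library of the Erk experiment had 165 FPKM of Gm13103 and 30.7 FPKM of Iqcf1, and listed Il20ra at 0: for the first 2 genes a wild-type library of another set resembled Btg4-/-.

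Malat1, a long non-coding RNA retained in nuclear speckles, had 38.3 and 44.5 FPKM in Btg4-/- and 2.35 and 3.78 FPKM in wild type (log2 difference 3.40, adjusted p = 2.59e-05). Kcng2, a modifier subunit of voltage-gated potassium channels, had 15.99 and 10.7 FPKM in Btg4-/- and 0.58 and 0.58 FPKM in wild type (3.16, adjusted p = 2.59e-05). Srgn, the proteoglycan core of secretory granules, had 13.3 and 12.0 FPKM in Btg4-/- and 2.09 and 0.70 FPKM in wild type (2.58, adjusted p = 0.00058). Both Btg4-/- libraries were several-fold above both wild-type libraries for each. Grb7, an adaptor of receptor tyrosine kinases, had 14.0 and 11.3 FPKM in Btg4-/- and 1.47 and 1.72 FPKM in wild type (2.39, adjusted p = 0.00457). Arl8a, a small GTPase that positions lysosomes, had 18.3 and 10.5 FPKM in Btg4-/- and 2.40 and 3.54 FPKM in wild type (1.92, adjusted p = 0.00266). Glmn, which encodes glomulin, an inhibitor of cullin-RING ubiquitin ligases, had 21.2 and 23.4 FPKM in Btg4-/- and 8.16 and 6.54 FPKM in wild type (1.49, adjusted p = 0.0167). Inhba, the activin A subunit and also a granulosa cell marker, had 36.2 and 46.5 FPKM in Btg4-/- and 11.9 and 16.02 FPKM in wild type (1.51, adjusted p = 0.00505). The granulosa list summed to 172 and 172 FPKM in Btg4-/- and 180 and 181 FPKM in wild type. These sums include Inhba, which was higher in both Btg4-/- libraries, and were still lower there than in wild type. The other markers of the list therefore summed to less in both Btg4-/- libraries than in either wild-type library, as deposited. The median log2 difference of the list's members, Inhba included, was -0.09, against -0.18 over all members. Hsd17b7 and Serpine2, of the same list, were called lower.

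Histone mRNAs of the clustered genes, which in most cells end in a stem-loop without a poly(A) tail, supplied 2 of the 12. Hist1h2bj had 41.4 and 38.3 FPKM in Btg4-/- and 5.73 and 3.09 FPKM in wild type (log2 difference 2.96, adjusted p = 0.0239). Hist1h3f had 14.1 and 23.6 FPKM in Btg4-/- and 3.38 and 3.77 FPKM in wild type (2.08, adjusted p = 0.000583). Looking at the whole class, a list chosen after these values were seen, 58 clustered histone genes were members. By limma 4 were higher (also Hist1h4h and Hist2h2aa1) and 0 lower, with 7 and 5 at an unadjusted p under 0.05. The calls are 6.90% and 0%, against 1.88% and 8.46% of all members. The median of these genes was 0.13 as deposited, 0.34 with median-of-ratios scaling and 0.43 with the GC correction. Their summed level was 1517 and 1635 FPKM in Btg4-/- and 1382 and 1435 FPKM in wild type. Reads of near-identical histone copies can be divided between copies, so single members are uncertain.

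The lower genes were led by 3 that were at or near 0 in Btg4-/-. Slc9b2, a sodium/proton exchanger, was listed at 0 in both Btg4-/- libraries and had 11.3 and 10.9 FPKM in wild type (adjusted p = 4.65e-05). Btn1a1, which encodes the butyrophilin of the milk fat globule, was listed at 0 in both Btg4-/- libraries and had 9.83 and 10.4 FPKM in wild type (adjusted p = 0.000245). D630033O11Rik had 1.59 and 0 FPKM in Btg4-/- and 9.20 and 12.8 FPKM in wild type (log2 difference -2.88, adjusted p = 0.003). All 3 were also listed at 0 in the wild-type GV library of the Erk experiment.

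The other lower genes encode proteins of varied roles, described 1 by 1. Cfl1, cofilin, which severs actin filaments, had 31.8 and 20.0 FPKM in Btg4-/- and 87.3 and 71.8 FPKM in wild type (log2 difference -1.61, SE 0.21, adjusted p = 0.00102). Myo9b, an unconventional myosin, had 6.27 and 5.90 FPKM in Btg4-/- and 23.7 and 23.6 FPKM in wild type (-1.80, adjusted p = 0.000346). Rgl2, an exchange factor for Ral GTPases, had 8.16 and 7.05 FPKM in Btg4-/- and 27.1 and 29.5 FPKM in wild type (-1.77, adjusted p = 0.000444). The wild-type pair was tight for both Myo9b and Rgl2. That every Btg4-/- value lay below it was required by the choice of genes. Map1s, a microtubule-associated protein, had 4.55 and 4.44 FPKM in Btg4-/- and 20.8 and 14.5 FPKM in wild type (-1.74, adjusted p = 0.00335). Pskh1, a serine kinase gene, had 5.87 and 3.65 FPKM in Btg4-/- and 20.9 and 18.6 FPKM in wild type (-1.87, adjusted p = 0.000292). Naglu, a lysosomal enzyme of heparan sulfate breakdown, had 4.36 and 3.04 FPKM in Btg4-/- and 15.6 and 16.4 FPKM in wild type (-1.87, adjusted p = 0.00129). The Naglu values of the wild-type libraries were close together. Ccl2, the monocyte chemokine, had 5.18 and 11.1 FPKM in Btg4-/- and 30.9 and 28.2 FPKM in wild type (-1.82, adjusted p = 0.0127). Cox6b2, a cytochrome c oxidase subunit best known from testis, had 3.38 and 2.49 FPKM in Btg4-/- and 7.86 and 18.04 FPKM in wild type (-1.73, adjusted p = 0.00439), with a wide gap between the wild-type libraries. Mt4, a metallothionein, had 3.11 and 3.01 FPKM in Btg4-/- and 12.6 and 20.0 FPKM in wild type (-2.06, adjusted p = 0.0317), and was the 1 gene of the 24 that no longer passed with the GC correction (adjusted p = 0.0677).

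**Figure D3:**
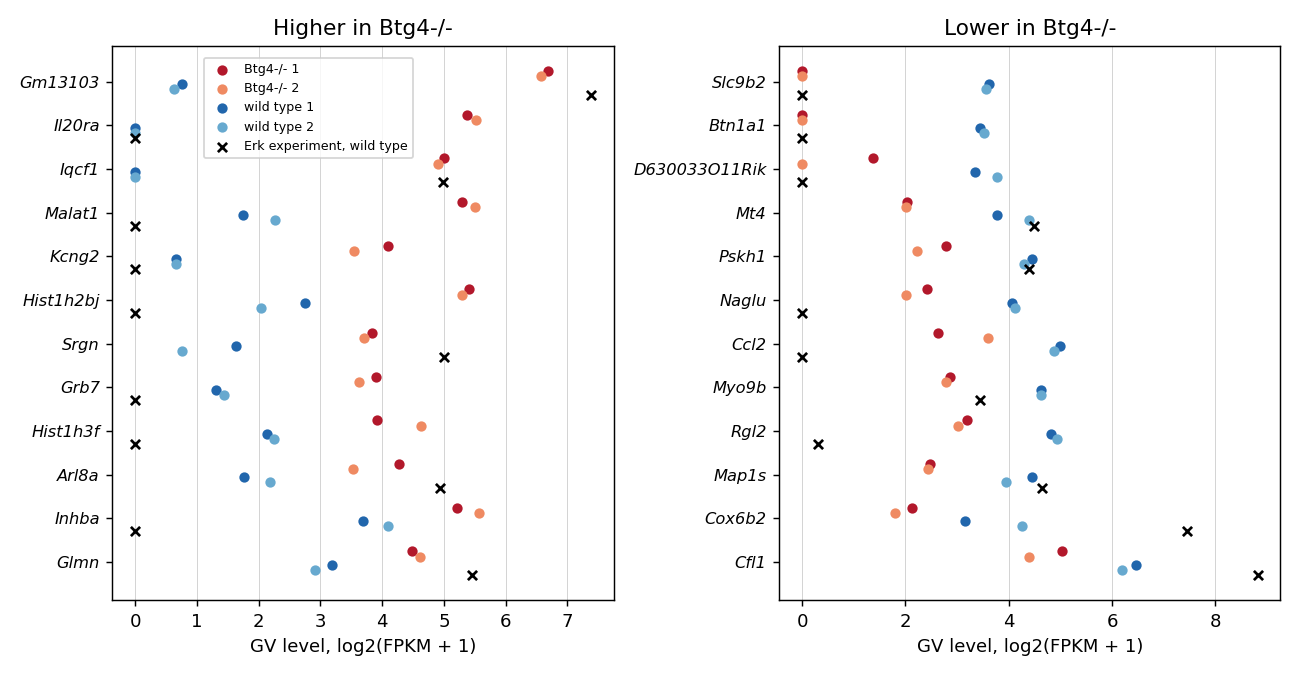
GV level, log2(FPKM + 1), of the 12 genes with the largest difference in each direction: circles are the 2 Btg4-/- and the 2 wild-type libraries, crosses the single wild-type GV library of the Erk experiment. Circles of the genotypes do not overlap for any gene, which the choice of genes required; the cross lies nearer the Btg4-/- mean for 5 of the higher and 7 of the lower genes.

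Against that separate wild-type GV library, the 24 genes divided about evenly. Its value lay nearer the Btg4-/- mean for 5 of the 12 higher genes (Gm13103, Iqcf1, Srgn, Arl8a and Glmn) and for 7 of the 12 lower genes, and nearer the mean of the wild-type pair for 7 and 5. All 7 of those higher genes were listed at 0 in that library. So were Slc9b2, Btn1a1, D630033O11Rik, Naglu and Ccl2 among the 7 lower genes nearer Btg4-/-, and Rgl2 had 0.23 FPKM there. A value of 0 falls on the lower side, whichever genotype that is, so these placements do not show likeness to a genotype. That library stands far from all 4 for other genes too, so the count is a description only.

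Genes that define the oocyte were called in both directions, and the balance depended on the scaling. Of the 12 zona pellucida and oocyte-secreted genes that were members, 1 was higher and 4 were lower, (8.33% and 33.3%, against 1.88% and 8.46% of all members), with a median of -0.43, against -0.18 over all members. After median-of-ratios scaling 2 were higher and 3 lower, with a median of -0.19, against 0.02 over all members. Gdf9, the growth factor by which the oocyte instructs its follicle, had 531 and 446 FPKM in Btg4-/- and 1005 and 909 FPKM in wild type (log2 difference -0.97, adjusted p = 0.000685). Astl, ovastacin, the protease that cleaves the zona after fertilization, had 13.9 and 11.7 FPKM in Btg4-/- and 39.3 and 39.0 FPKM in wild type (-1.55, adjusted p = 0.000599). Bmp6 had 14.6 and 9.74 FPKM in Btg4-/- and 23.9 and 23.4 FPKM in wild type (-0.93, adjusted p = 0.00484). These 3 were called lower under both scalings and with the GC correction; Zp3, the fourth lower gene, was called only as deposited (-0.58, adjusted p = 0.0297). Its partners Zp1, with 100 and 90.1 FPKM in Btg4-/- and 152 and 131 FPKM in wild type, and Zp2, with 119 and 98.5 FPKM in Btg4-/- and 111 and 110 FPKM in wild type, did not pass. Bmp15, the partner of Gdf9, had 217 and 224 FPKM in Btg4-/- and 291 and 314 FPKM in wild type and did not pass either (adjusted p = 0.0543). Plac1l, an oocyte-secreted gene, was higher, with 311 and 280 FPKM in Btg4-/- and 123 and 144 FPKM in wild type (1.14, adjusted p = 0.00341).

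The oocyte transcription factors had 17 members, 2 higher and 6 lower (median -0.43). These are 11.8% and 35.3%, against 1.88% and 8.46% of all members. After median-of-ratios scaling 3 were higher and 1 lower (median -0.19). The list's summed level, most of it from Obox genes, was 6577 and 6016 FPKM in Btg4-/- and 4151 and 4129 FPKM in wild type. It was higher in both Btg4-/- libraries. Obox2, an oocyte homeobox gene, had 2910 and 2673 FPKM in Btg4-/- and 1227 and 1253 FPKM in wild type (log2 difference 1.17, adjusted p = 0.000924). Obox1 had 1611 and 1497 FPKM in Btg4-/- and 1023 and 1044 FPKM in wild type (0.59, adjusted p = 0.0115). Both genotype pairs were tight, but Obox copies are similar in sequence and reads may be shared between them. Foxo3, which restrains activation of primordial follicles, had 21.6 and 21.7 FPKM in Btg4-/- and 36.4 and 37.4 FPKM in wild type (-0.74, adjusted p = 0.00505). Nobox, Figla, Ybx2, Pou5f1 and Zfp57 were also lower as deposited, and of the 6 lower genes Foxo3 alone stayed called with median-of-ratios scaling and none with the GC correction.

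Maternal effect genes, whose products the embryo inherits, had 39 members, 1 higher and 13 lower (median -0.34). These are 2.56% and 33.3%, against 1.88% and 8.46% of all members. Dnmt3l, the cofactor of oocyte DNA methylation, had 5.55 and 6.23 FPKM in Btg4-/- and 12.4 and 16.9 FPKM in wild type (log2 difference -1.17, adjusted p = 0.00226). H1foo, the oocyte linker histone, had 171 and 170 FPKM in Btg4-/- and 338 and 337 FPKM in wild type (-0.99, adjusted p = 0.0115). Trim28, a co-repressor that protects imprints, had 18.7 and 18.98 FPKM in Btg4-/- and 39.3 and 35.2 FPKM in wild type (-0.95, adjusted p = 0.00534). The H1foo values were close together within each genotype. Dppa3, also called Stella, had 239 and 214 FPKM in Btg4-/- and 354 and 373 FPKM in wild type (-0.68, adjusted p = 0.00218). Nlrp9c was higher, with 44.9 and 38.2 FPKM in Btg4-/- and 22.1 and 22.1 FPKM in wild type (0.88, adjusted p = 0.00148). The count of lower genes was 6 with median-of-ratios scaling and 4 with the GC correction. The 15 oocyte markers used to check the label, a list that overlaps the others, had a median of -0.57. By limma 0 were higher and 7 lower (0% and 46.7%), with 1 and 9 at an unadjusted p under 0.05. With median-of-ratios scaling the counts were 1 and 2, and with the GC correction 0 and 1.

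The machinery that BTG4 works with was called about as often as other genes. All 16 listed genes of the CCR4-NOT deadenylase and of the other BTG/TOB adaptors were members. By limma 0 were higher and 2 lower (4 and 3 at an unadjusted p under 0.05), or 0% and 12.5%, against 1.88% and 8.46% of all members, with a median of -0.12. After median-of-ratios scaling 2 were higher and 0 lower, with a median of 0.09, and with the GC correction there were 0 calls. The lower genes were Cnot3, a scaffold subunit, with 21.5 and 15.1 FPKM in Btg4-/- and 40.8 and 35.5 FPKM in wild type (log2 difference -1.04, adjusted p = 0.0163), and Tob2, an adaptor, with 5.89 and 10.9 FPKM in Btg4-/- and 17.3 and 18.97 FPKM in wild type (-1.08, adjusted p = 0.0209). Neither stayed called after median-of-ratios scaling (adjusted p = 0.0566 and 0.0615). The catalytic subunits did not pass as deposited. Cnot7 had 667 and 709 FPKM in Btg4-/- and 495 and 575 FPKM in wild type (0.37, adjusted p = 0.0929), and passed after median-of-ratios scaling (adjusted p = 0.00859). Cnot6l, the other kind of deadenylase subunit, had 74.1 and 65.1 FPKM in Btg4-/- and 68.5 and 80.1 FPKM in wild type (-0.09), with overlapping libraries. Among adaptors, Btg3 had 2.95 and 4.16 FPKM in Btg4-/- and 0.16 and 0 FPKM in wild type, which did not pass as deposited (adjusted p = 0.0721) and did with median-of-ratios scaling (0.0454).

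Of the other decay, poly(A) and storage factors, 38 were members, 1 higher and 7 lower (median -0.30). These are 2.63% and 18.4%, against 1.88% and 8.46% of all members. Pan3, which recruits the PAN2 deadenylase, had 4.43 and 5.38 FPKM in Btg4-/- and 12.1 and 11.5 FPKM in wild type (log2 difference -1.12, adjusted p = 0.00692). Csda, a cold-shock domain protein gene, had 21.1 and 20.9 FPKM in Btg4-/- and 44.7 and 47.0 FPKM in wild type (-1.09, adjusted p = 0.00793). Upf1, the helicase of nonsense-mediated decay, had 6.83 and 7.05 FPKM in Btg4-/- and 13.6 and 16.9 FPKM in wild type (-1.03, adjusted p = 0.00766). Every one of these Btg4-/- values lay below the wild-type pair, as those of 41.8% of all members did. Ybx2 (also called Msy2) and Cpeb1, proteins that store mRNAs in the oocyte, were lower as deposited but not with median-of-ratios scaling. Paip1, a partner of poly(A)-binding protein, was higher, with 183 and 199 FPKM in Btg4-/- and 120 and 142 FPKM in wild type (0.54, adjusted p = 0.0497). Pan3 and Csda were the lower genes of this list that passed with the GC correction (adjusted p = 0.0132 and 0.0264).

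Regulators of prophase arrest and meiotic resumption had 61 members, 2 higher and 9 lower (median -0.33). These are 3.28% and 14.8%, against 1.88% and 8.46% of all members. Gpr3, the receptor that keeps cyclic AMP high and so holds the arrest, had 17.2 and 21.7 FPKM in Btg4-/- and 33.4 and 41.8 FPKM in wild type (log2 difference -0.91, adjusted p = 0.00602). Fzr1, the activator of the anaphase-promoting complex in prophase, had 9.19 and 7.11 FPKM in Btg4-/- and 19.01 and 15.7 FPKM in wild type (-1.01, adjusted p = 0.0163). Pttg1, securin, had 98.7 and 74.6 FPKM in Btg4-/- and 218 and 228 FPKM in wild type (-1.37, adjusted p = 0.00245). All these Btg4-/- values lay below both wild-type libraries, as those of 41.8% of all members did. Gpr3 and Fzr1 no longer passed with the GC correction (adjusted p = 0.188 and 0.14). Mapk3, which encodes ERK1, had 13.8 and 9.66 FPKM in Btg4-/- and 35.7 and 29.0 FPKM in wild type (-1.40, adjusted p = 0.000583). Ccnb1, cyclin B1, was higher, with 932 and 818 FPKM in Btg4-/- and 648 and 657 FPKM in wild type (0.42, adjusted p = 0.0353). Mad2l1, of the spindle checkpoint, was higher too, with 261 and 235 FPKM in Btg4-/- and 159 and 144 FPKM in wild type (0.71, adjusted p = 0.0169). Mos, the kinase that switches on ERK in maturation, had 1199 and 1036 FPKM in Btg4-/- and 1365 and 1214 FPKM in wild type and did not pass. The dormant mRNAs recruited to ribosomes in maturation, a list that shares Ccnb1 with this one, had 20 members. Their median was -0.22 as deposited and 0.02 after median-of-ratios scaling. Counts were 4 higher and 2 lower after that scaling, and 1 higher and 3 lower as deposited (5% and 15%). The lower ones were Bub1b, Tet3 and Slbp. Bub1b, a spindle checkpoint kinase, had 128 and 138 FPKM in Btg4-/- and 214 and 211 FPKM in wild type (-0.67, adjusted p = 0.0039).

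Housekeeping classes had medians above that of all genes, while their summed levels as deposited did not separate the genotypes. The sums given here were not rescaled. Median-of-ratios factors were 0.83 and 0.78 in Btg4-/- and 0.95 and 0.97 in wild type. Dividing by them raises the Btg4-/- sums more than the wild-type sums. By these factors both Btg4-/- sums would lie above both wild-type sums for the ribosomal, respiratory chain and proteasome lists. The lack of separation thus holds only for the values as deposited. Cytosolic ribosomal protein genes, matched by name, had 92 members with a median of 0.11 as deposited, 0.36 with median-of-ratios scaling and 0.35 with the GC correction. Their summed level was 55316 and 43905 FPKM in Btg4-/- and 46931 and 44354 FPKM in wild type, so that the Btg4-/- libraries stood on either side of the wild-type pair. Of these genes, 3 were higher and 1 lower as deposited (3.26% and 1.09%, against 1.88% and 8.46% of all members). With median-of-ratios scaling 11 were higher and 0 lower. Rpl23 had 99.8 and 81.5 FPKM in Btg4-/- and 50.9 and 61.5 FPKM in wild type (log2 difference 0.68, adjusted p = 0.0482). Rpl10 had 162 and 123 FPKM in Btg4-/- and 99.2 and 98.8 FPKM in wild type (0.51, adjusted p = 0.036). For both, the shift was small and the Btg4-/- values lay above both wild-type values, as for 18.5% of all members. The nuclear-encoded respiratory chain had 77 members, 1 higher and 2 lower (1.30% and 2.60%), and a median of 0.04. Its summed level was 19591 and 16325 FPKM in Btg4-/- and 17655 and 16879 FPKM in wild type, again on either side. Ndufa1, of complex I, had 33.2 and 31.8 FPKM in Btg4-/- and 13.6 and 19.2 FPKM in wild type (0.97, adjusted p = 0.0474). Cox6c, of complex IV, had 35.3 and 31.4 FPKM in Btg4-/- and 56.9 and 66.3 FPKM in wild type (-0.86, adjusted p = 0.00215). The proteasome had 35 members, a median of 0.01 and summed levels of 8208 and 7114 FPKM in Btg4-/- and 7217 and 6893 FPKM in wild type, with Psma3, an alpha-ring subunit, as its 1 higher gene and 0 lower by limma (3 and 1 at an unadjusted p under 0.05). Psma3 had 323 and 292 FPKM in Btg4-/- and 183 and 190 FPKM in wild type (0.72, adjusted p = 0.0137).

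Translation factors, matched by name so that the Argonaute gene Eif2c3 is among them, had 62 members. As deposited 3 were higher and 6 lower (4.84% and 9.68%), with a median of -0.17. The balance was opposite after median-of-ratios scaling, with 8 higher and 2 lower and a median of 0.06. Eif2s2, the beta subunit of the factor that delivers initiator tRNA, had 53.2 and 41.5 FPKM in Btg4-/- and 32.9 and 29.6 FPKM in wild type (log2 difference 0.57, adjusted p = 0.0227). Eif2ak3, the PERK kinase that phosphorylates the alpha subunit of that factor, had 1.76 and 1.31 FPKM in Btg4-/- and 6.02 and 7.29 FPKM in wild type (-1.59, adjusted p = 0.00303). The levels of neither gene overlapped between genotypes, which also held for 18.5% of all members upward and 41.8% downward. Solute carriers had 160 members, 2 higher and 19 lower (1.25% and 11.9%), with a median of -0.23. They were divided 9 to 10 with median-of-ratios scaling. Slc45a3, a membrane transporter gene first described in prostate, had 191 and 191 FPKM in Btg4-/- and 567 and 559 FPKM in wild type (-1.56, SE 0.10, adjusted p = 4.12e-06). Its values were close together within each genotype. Zinc finger genes named Zfp had 133 members, 1 higher and 11 lower (0.752% and 8.27%, near the 1.88% and 8.46% of all members), 5 and 6 after median-of-ratios scaling, and 1 and 4 with the GC correction. The higher gene was Zfp961, with 9.58 and 13.0 FPKM in Btg4-/- and 3.46 and 3.60 FPKM in wild type (1.43, adjusted p = 0.00344). Zfp956 was lower, with 0.30 and 0.50 FPKM in Btg4-/- and 3.62 and 4.32 FPKM in wild type (-1.83, adjusted p = 0.00123). Immediate-early and stress genes, which mark damage in handling, had 22 members, with 0 calls in either direction by limma as deposited, 1 higher and 6 lower at an unadjusted p under 0.05, and a median of -0.31. Atf4 had 94.0 and 83.5 FPKM in Btg4-/- and 124 and 115 FPKM in wild type (-0.43, adjusted p = 0.122), and Dusp1 had 54.8 and 56.1 FPKM in Btg4-/- and 61.2 and 60.9 FPKM in wild type (-0.14, adjusted p = 0.772).

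**Figure D4:**
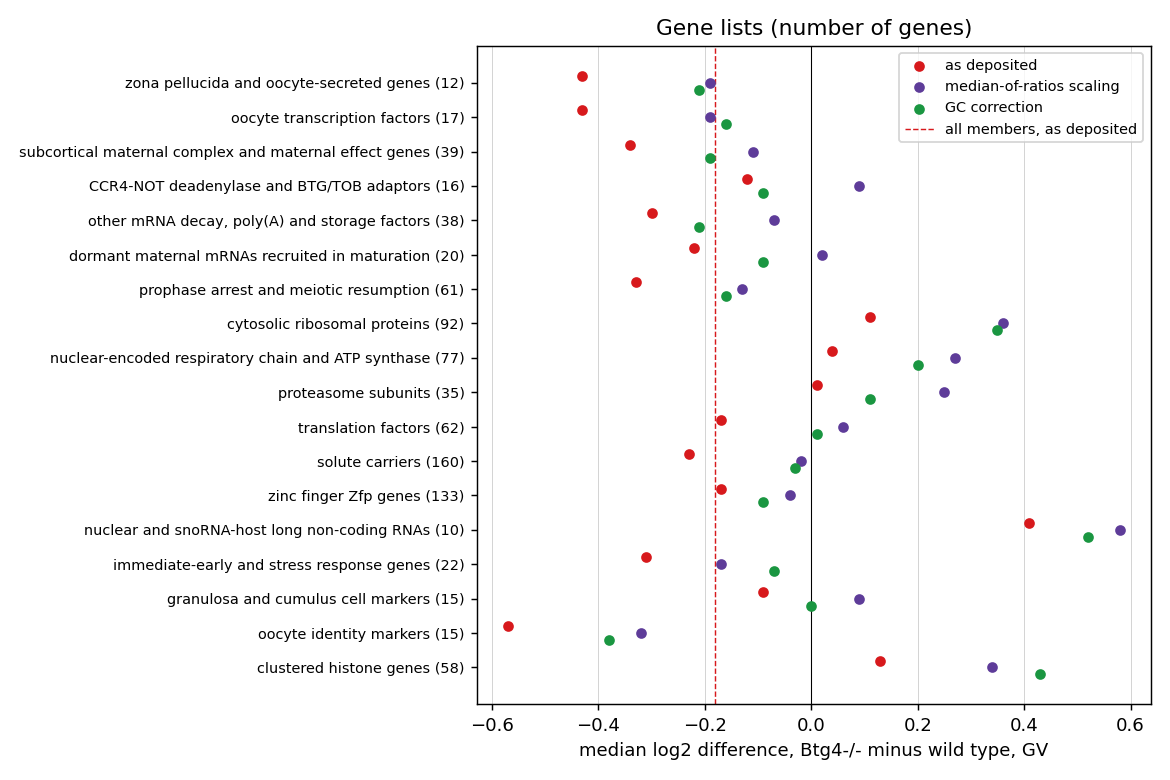
Median log2 difference, Btg4-/- minus wild type, of each gene list with at least 10 members, as deposited, with median-of-ratios scaling and with the GC correction. The dashed line at -0.18 is the median of all members as deposited; oocyte identity markers lie furthest to the left (-0.57) and long non-coding RNAs (0.41), histone (0.13) and ribosomal protein genes (0.11) to the right.

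By class of transcript, protein-coding genes held 161 of the higher and 765 of the lower calls among 8769 members. Long non-coding RNAs held 5 and 11 among 274. Over all members 1.88% were higher and 8.46% lower. The list of nuclear and snoRNA-host long non-coding RNAs had 10 members with a median of 0.41, and Malat1 was its 1 call. The 13 small nucleolar RNAs had a median of 2.57 and 0 calls in either direction by limma (4 higher and 1 lower at an unadjusted p under 0.05). Short RNAs of this kind are poorly held by an mRNA library, and FPKM is unstable for them.

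The genes that separate the genotypes after maturation were then followed at the GV stage, in libraries that did not choose them apart from the shared filter and variance. Among members, 35.4% were called higher and 25.2% lower in Btg4-/- at MII. Those at least 2-fold higher at MII, 2698 genes with a median MII difference of 1.88, had a median GV difference of -0.15 as deposited, beside -0.18 for all members. At GV 48 of them were higher and 196 lower (1.78% and 7.27%). Those at least 2-fold lower at MII, 1824 genes with a median MII difference of -1.76, had a median GV difference of -0.20, with 42 higher and 194 lower (2.3% and 10.6%). Over the 4 pairs of a Btg4-/- with a wild-type library the set medians were -0.26 to -0.03 for the genes higher at MII and -0.24 to -0.15 for the genes lower at MII, so the ranges overlapped. After median-of-ratios scaling the medians were 0.08 for the genes higher at MII, with 126 higher and 71 lower at GV, and -0.01 for the genes lower at MII, with 96 and 101, beside 0.02 for all members. With the GC correction the sets lay further apart, at 0.03 (52 higher and 50 lower) and -0.13 (34 and 75), beside -0.04 for all members. Genes chosen in the Erk experiment, with no replicate, gave GV medians of -0.25 for 3031 genes at least 4-fold lower at MII than at GV in wild type, and -0.06 for 807 genes at least 4-fold higher. After median-of-ratios scaling these medians were -0.04 and 0.15. With the GC correction they lay closer together, at -0.07 and 0.02. The median GC content of the sets was 52.1% and 48.3%.

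**Figure D5:**
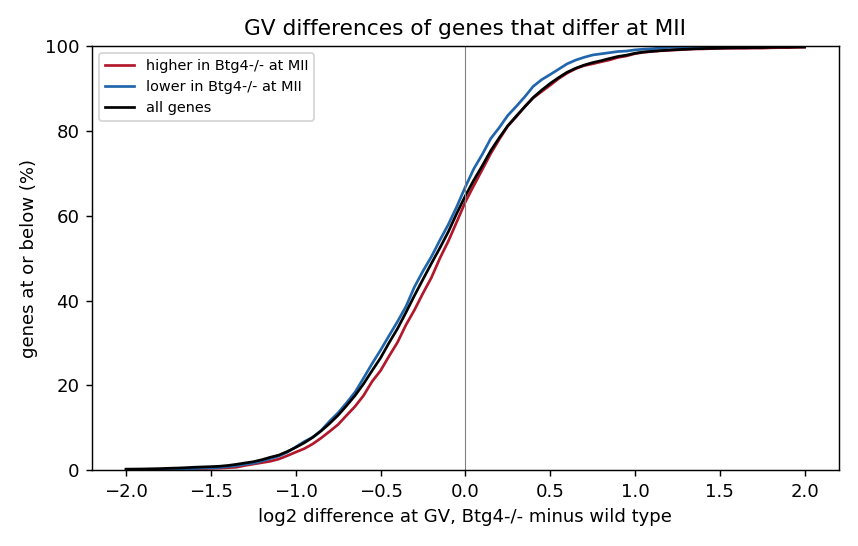
Cumulative share of genes (%) by log2 difference at GV, Btg4-/- minus wild type, for genes at least 2-fold higher in Btg4-/- at MII (2698), at least 2-fold lower (1824), and all members (9379). Values are as deposited, and the 3 curves lie close together, with medians of -0.15, -0.20 and -0.18; with the GC correction, not drawn, the medians are 0.03, -0.13 and -0.04.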

How the data were processed

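Bulk mRNA of pooled GV oocytes went through paired-end HiSeq sequencing, per the labels' protocols. The authors deposited FPKM per locus, with mm9 coordinates and an interval, per the file headers; CASAVA 1.8, TopHat and Cufflinks are named in the submitters' processing notes, with no version for TopHat or Cufflinks. The annotation release and any use of strand are likewise not given in the sources used here. A FPKM value is relative within a library, and mRNA purification can make it depend on tail length. Without strand, a gene and its antisense partner cannot be told apart.

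Of 23813 loci, those sharing a symbol were summed (260 symbols had more than 1 locus), and 175 symbols with the status LOWDATA were kept. Depth was estimated by reading each interval the authors gave as 4 SDs, which covers counting error only. Tests used limma 3.58.1 in R 4.3.3 on log2(FPKM + 1), a group-means model over 16 libraries in 8 groups of 2 (8 residual degrees of freedom), with moderated, trended variance. Two-sided p-values were adjusted (Benjamini-Hochberg) over 12311 genes (a mean of at least 1 FPKM in 1 of the 8 groups), threshold 0.05; over these, 178 were higher (1.45%) and 795 lower (6.46%). Log2 differences understate those of genes near 1 FPKM. The script was tested on simulated data. GC content came from GENCODE M21 transcripts matched by symbol (99.2% of members). The correction subtracts a loess curve (span 0.5) per library, its level included, and so also recentres each library. The length correction was built the same way.

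Groups came from sample titles. Members and lists were chosen with earlier results of these data known, and lists are described by counts and medians only. The genes named were Btg4, the 12 largest differences in each direction (called under both scalings, without overlap, at least 10 FPKM in 1 genotype), the 10 most abundant, up to 4 called members per list, and called genes within 5 Mb of Btg4. Other list members named were chosen after their values were seen. Alternatives covered scaling, quantile normalization, pseudocount 0.1, filters, GV libraries alone, a replicate block, transcript length, and each library left out. Interval midpoints and the GC correction were chosen after seeing the data.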

Additional observations from a re-analysis of the deposited data

Results flagged for a closer look

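For 19 of the 24 genes with the largest differences at GV, the genotype difference at GV departed from that at MII by an interaction contrast in the same limma fit (adjusted over all 12311 genes). Values are the GV difference minus the MII difference on log2(FPKM + 1). The contrast was run on the values as deposited only, so whether the count depends on scaling was not tested. The genes were picked for a large GV difference, so a smaller one at MII was favoured by the choice.

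Of the genes higher at GV, Il20ra (5.45, adjusted p = 1.27e-06) was listed at 0 in all 4 MII libraries, Malat1 gave 4.76 (adjusted p = 6.26e-07) and Srgn 3.89 (adjusted p = 1.15e-05). Srgn had 9.29 and 8.37 FPKM in Btg4-/- MII oocytes and 25.3 and 21.8 FPKM in wild-type MII oocytes, the opposite order to GV. Grb7 gave 2.49 (adjusted p = 0.00405), Hist1h3f 1.76 (adjusted p = 0.00127), Inhba 1.75 (adjusted p = 0.0021) and Kcng2 0.93 (adjusted p = 0.0409). Glmn gave -1.63 (adjusted p = 0.0128), its difference being larger at MII, with 27.8 and 34.3 FPKM in Btg4-/- and 1.92 and 3.64 FPKM in wild type.

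Of the genes lower at GV, Rgl2 gave -3.97 (adjusted p = 3.54e-07). It had 17.4 and 15.7 FPKM in Btg4-/- MII oocytes and 3.05 and 2.57 FPKM in wild-type MII oocytes, the opposite order to GV. Ccl2 gave -3.23 (adjusted p = 0.00037), also with the opposite order: 10.4 and 12.6 FPKM in Btg4-/- at MII and 4.90 and 2.76 FPKM in wild type. D630033O11Rik gave -3.49 (adjusted p = 0.000716), Btn1a1 -3.1 (adjusted p = 0.000212), Slc9b2 -2.44 (adjusted p = 0.000372), Myo9b -2.11 (adjusted p = 3.82e-05), Map1s -2.07 (adjusted p = 0.000988), Cox6b2 -1.87 (adjusted p = 0.00287), Cfl1 -1.72 (adjusted p = 0.000426), Pskh1 -1.58 (adjusted p = 0.0004) and Naglu -1.09 (adjusted p = 0.0248). Cfl1 had 217 and 201 FPKM in Btg4-/- MII oocytes and 216 and 174 FPKM in wild-type MII oocytes, with overlap. The interaction did not pass for Gm13103, Iqcf1, Hist1h2bj, Arl8a and Mt4; Gm13103 had 57.7 and 55.3 FPKM in Btg4-/- at MII and 0 and 0.46 FPKM in wild type.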

How the results depend on the processing

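Counts of higher and lower members, 176 and 793 as deposited, came to 437 and 378 with median-of-ratios scaling, 303 and 408 with the length correction and 0 and 0 with the GV libraries alone, which leave 2 residual degrees of freedom. Lower calls numbered 297 with quantile normalization and 260 with the GC correction. The length and GC corrections also recentre each library, so their counts do not reflect a slope alone. Without 1 library, higher calls ranged from 53 to 88 and lower calls from 207 to 567. The counts were 80 and 567 without Btg4-/- 1, 88 and 216 without Btg4-/- 2, 53 and 207 without wild-type 1, and 62 and 264 without wild-type 2; fewer libraries were fitted, and the lone library is assumed to vary like the other groups. The Btg4 difference passed with median-of-ratios scaling (0.55) and the length correction (0.45). The balance of calls turned with median-of-ratios scaling. So did the sign of the median over all members (-0.18 as deposited, 0.02 scaled) and over the genes higher at MII (-0.15 and 0.08). The 24 genes with the largest differences could not change sign with that scaling, because their choice required the same direction under both. Same-numbered libraries did not deviate together (r = -0.01 over 9379 genes); with the replicate block the counts were 149 and 625. Of the 24 genes with the largest differences, Mt4, Ccl2, Grb7, Inhba, Hist1h2bj, Glmn and Cox6b2 each lost their call under at least 1 setting besides the GV libraries alone, where all 24 did. Depths of 1860000 to 2430000 fragments limit what can be said of levels close to 1 FPKM.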
